A study of Mus musculus with 6 samples.

Results

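The genes described here are 8 noncoding RNAs with nuclear or neural roles, Malat1, Neat1, Miat, Rmst, Pantr1, Firre, Gas5 and Snhg11, out of 53801 genes counted. They were chosen by name, without a threshold on their values but with earlier results of these data known, and all 8 passed the filter on low counts. The libraries are RNA-seq of mouse neural progenitors (NPCs) made by differentiating embryonic stem cells of the hybrid strain BL/6J x CAST-EiJ and then subcloned. In all of them SPEN, an RNA-binding repressor that Xist RNA brings to the X chromosome being silenced, carries a degron, a tag through which auxin triggers breakdown of the tagged protein. The groups were untreated cells, cells given 500 uM auxin for 24 h and cells given it for 48 h, each as 1 library of clone 31 and 1 of clone 30, so that n = 2 per group. No cells without the degron were analysed here, so effects of auxin itself and of SPEN loss cannot be told apart. Replicates are 2 subclones, and in the fit on treatment group alone the p-values measure the spread between them. In the fit that also pairs the libraries of a clone, they measure the spread left once the clone difference is removed. Levels are CPM, counts scaled to library size with TMM factors. Changes are on the log2 scale with an SE, taken in edgeR as the size of the change divided by the square root of its test's F statistic. A gene was called at a Benjamini-Hochberg adjusted p under 0.05 over all genes tested. Coordinates are on GRCm38 (mm10).

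After 48 h of auxin, 5 of the 8 RNAs (Malat1, Miat, Rmst, Pantr1 and Firre) rose and none fell in the fit that pairs the libraries of a clone, with rises of 1.82-fold (Malat1) to 5.97-fold (Rmst). In that fit 8.35% of all genes were called higher and 9.08% lower. Without that pairing edgeR called none of them. None was called after 24 h, when Neat1 and Miat stood lower than in untreated cells of their own clone. Rmst and Gas5 were lower in both clones too, with counting intervals that include no change, while Malat1 and Pantr1 were higher in both. Clone 31 held less Miat and far less Snhg11 than clone 30 at every time. Gas5 had the narrowest relative range of the 8, from 98.4 to 121 CPM over the 6 libraries.

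Long noncoding RNAs act in many ways, several of them inside the nucleus. Malat1 is an abundant RNA of nuclear speckles, bodies that store splicing factors, and Neat1 is the scaffold of paraspeckles, bodies built around its long transcript. Miat (also called Gomafu) is a nuclear RNA of the nervous system that binds splicing proteins, Rmst is a neural RNA that binds the transcription factor SOX2 in human neural cells, and Pantr1 is transcribed next to Pou3f3, a gene for a transcription factor of neural progenitors. Firre is an X-linked nuclear RNA, transcribed from both X chromosomes of female cells, that binds the nuclear matrix protein HNRNPU. Gas5 and Snhg11 are host genes of small nucleolar RNAs (snoRNAs), and the spliced Gas5 RNA is degraded by nonsense-mediated decay when it is translated.

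The library kit, TruSeq RNA v2, selects RNA with a poly(A) tail, and the 3′ ends of Malat1 and of the long Neat1 transcript are made by cleavage rather than by polyadenylation. The sequences at those ends are shown because they bear on what the counts can contain. Each is given 5′ to 3′ as RNA letters written as DNA, from GENCODE vM21 on GRCm38 (mm10). In the Malat1 element (chr19:5795972-5796077, minus strand, transcript bases 6596 to 6701 of 6983) the capitals mark both U-rich motifs and the A-rich tract that pair into a triple helix. In the end of the long Neat1 transcript (chr19:5824708-5824807, minus strand, the last 100 bases of 20771) they mark a U-rich motif of the same kind and the A-rich end. In the end of the short Neat1 transcript (chr19:5842307-5842366, minus strand, the last 60 bases of 3004) they mark the polyadenylation signal.
Malat1 element: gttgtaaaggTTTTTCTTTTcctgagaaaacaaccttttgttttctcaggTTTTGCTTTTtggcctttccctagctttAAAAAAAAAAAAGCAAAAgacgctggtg
Neat1 long transcript: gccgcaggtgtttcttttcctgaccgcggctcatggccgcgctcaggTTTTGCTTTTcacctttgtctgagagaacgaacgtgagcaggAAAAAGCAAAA
Neat1 short transcript: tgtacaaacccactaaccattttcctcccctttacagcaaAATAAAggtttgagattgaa
The annotated Malat1 transcript goes on past the stretch shown. The counts join both Neat1 transcripts into 1 gene value, so a change in either one alone was not tested.

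Miat carries copies of TACTAAC, a branch-point sequence of introns, which the splicing factor SF1 binds. Transcript Miat-205 (9163 bases) holds 6 copies of these letters on the sense strand. Of 7040 GENCODE transcripts of at least 5000 bases, 3 (0.043%) hold at least 5 copies, Miat-205 itself among them. The stretch with 3 of them (chr5:112216742-112216822, minus strand) is shown with the copies in capitals.
Miat repeats: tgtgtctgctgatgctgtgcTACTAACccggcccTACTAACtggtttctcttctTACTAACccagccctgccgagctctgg
An intron of Rmst holds the microRNA gene Mir135a-2, whose counts are given beside those of Rmst. Its mature RNAs (chr10:92072141-92072163 for the 5p form and chr10:92072104-92072124 for the 3p form, minus strand), from RefSeq on GRCm38.p6, are shown with the seed, bases 2 to 8, in capitals.
miR-135a-5p: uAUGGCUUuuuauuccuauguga
miR-135a-2-3p: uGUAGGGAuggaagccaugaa

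The depth ran from 24603816 counts (untreated, clone 30) to 43008978 counts (24 h, clone 31), and 3 counts correspond to 0.122 and 0.0698 CPM there. Mean Spen RNA was 104 ± 16.5, 196 ± 31.3 and 229 ± 41.9 CPM (untreated, 24 h, 48 h; SD, n = 2 each), and since the degron acts on the protein, RNA does not measure the depletion. The NPC label was checked against markers. Nes, Vim, Fabp7 and Sox2 were each at 192 CPM or more in every library, while Sox1 had at most 0.0803 CPM and the pluripotency genes Pou5f1, Zfp42 and Dppa5a had 0 counts. Of the other 3 pluripotency genes listed, Esrrb stood at 1.21 to 6.33 CPM, Nanog at 1.0 to 3.65 CPM and Tdgf1 at no more than 0.0803 CPM. Olig1, a gene of the oligodendrocyte lineage, stood at 1998 to 2697 CPM in these cells. In bulk RNA, fewer cells of a type and less RNA per cell cannot be told apart.

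Levels were set side by side per kb of exon, as CPM divided by exon length. Malat1 had the highest median over the 6 libraries, 64.2 CPM per kb (range 45.1 to 95.5). Its mean level per kb was higher than that of 95.7% of the genes tested. Gas5 followed with 29.7 CPM per kb (26.2 to 32.2), and its lowest library was under the highest of Miat while the Malat1 range overlapped no other. Pantr1 had 12.8 CPM per kb (10.0 to 23.2) and Miat 7.19 (0.975 to 26.8), and those ranges overlap. Firre had 1.23 CPM per kb (0.969 to 2.73) and Neat1 0.960 (0.555 to 1.76), which overlap as well, with the length of the long transcript used for Neat1. Rmst at 0.0657 CPM per kb (0.0303 to 0.370) and Snhg11 at 0.0547 (0.00278 to 0.311) were lowest and rest on few counts.

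**Figure D1:**
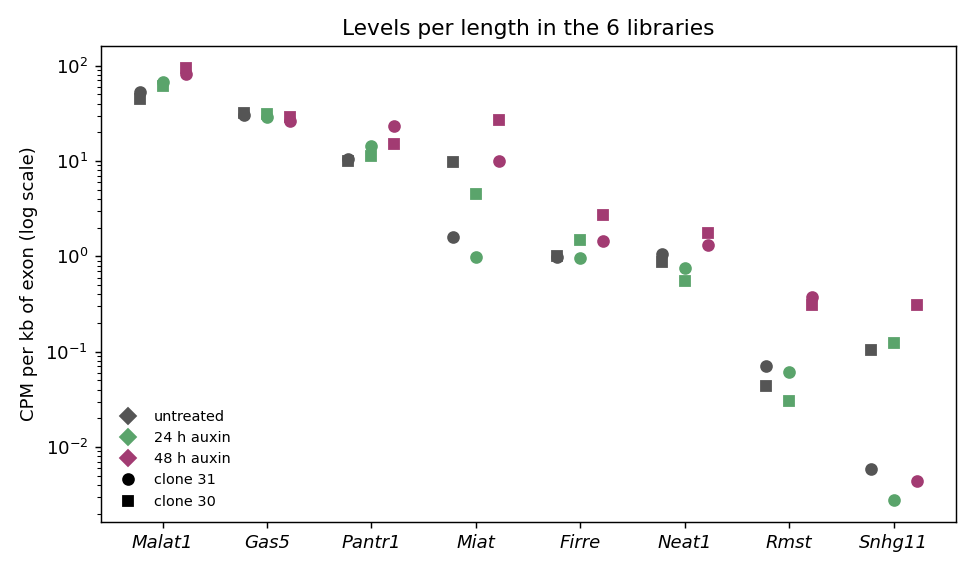
Level of each RNA in the 6 libraries, in CPM per kb of exon on a log scale, in the order of the median level; colours give the auxin time and symbols the clone (circles clone 31, squares clone 30). Malat1 (45.1 to 95.5 CPM per kb) stands above all the others, and Miat and Snhg11 are spread by clone.

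Of the nuclear-body RNAs, Malat1 (chr19:5795690-5802672, minus strand) stood in clone 31 at 372, 469 and 578 CPM (untreated, 24 h, 48 h). Clone 30 had 315, 427 and 667 CPM at the same times. Both clones were highest at 48 h, and no library of a later time fell below one of an earlier time. Malat1 rose at 48 h against untreated by 0.86 ± 0.14 on the log2 scale (clone-blocked edgeR fit, ± SE, adjusted p = 0.0246). At 24 h the difference from untreated was 0.38 ± 0.13 in the same fit (adjusted p = 0.774).

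Neat1 (chr19:5824708-5845478, minus strand) stood in clone 31 at 21.9, 15.6 and 27.1 CPM (untreated, 24 h, 48 h). Clone 30 had 18.0, 11.5 and 36.5 CPM. Both 24 h libraries were below both untreated ones, and both 48 h libraries were above all others. Against untreated the log2 difference was -0.56 ± 0.22 at 24 h (adjusted p = 0.798) and 0.68 ± 0.22 at 48 h (adjusted p = 0.0827) with the block in edgeR, neither called. Between 48 h and 24 h, Neat1 rose by 1.24 ± 0.22 (adjusted p = 0.0187). DESeq2 with the block did call the 48 h difference from untreated, at an adjusted p of 0.0273. In clone 30 the 48 h level was 2.03 times the untreated one (95% counting interval 1.82 to 2.27), and in clone 31 it was 1.24 times (1.12 to 1.37). These intervals cover counting error only.

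**Figure D2:**
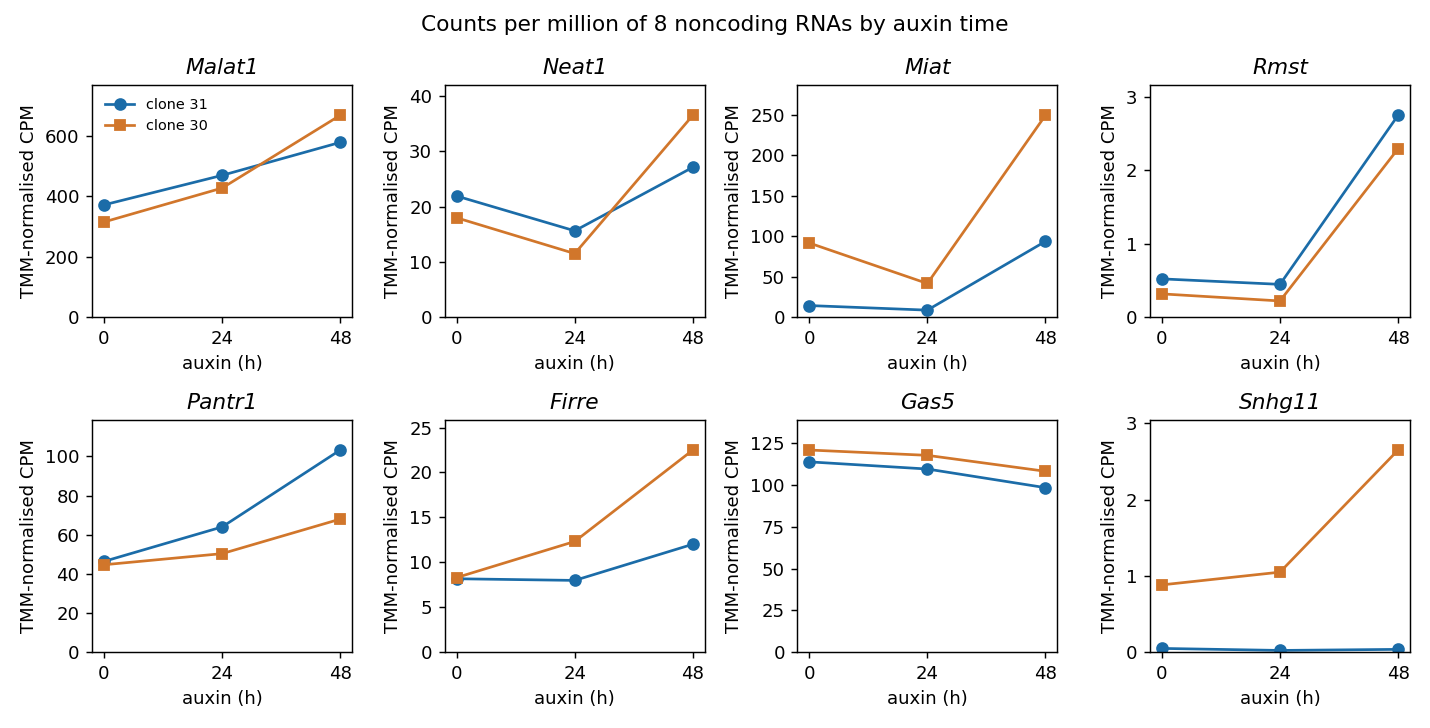
TMM-normalised CPM of each RNA against hours of auxin (0 is untreated), with 1 point per library, circles for clone 31 and squares for clone 30; each panel has its own vertical axis from 0. Malat1, Neat1, Miat, Rmst, Pantr1 and Firre have both 48 h points above both untreated points. Neat1, Miat, Rmst and Gas5 are lower at 24 h than untreated within each clone, and Snhg11 is near 0 in clone 31 at all times.

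Of the neural RNAs, Miat (chr5:112213228-112229395, minus strand) stood in clone 31 at 14.7, 9.06 and 93.8 CPM (untreated, 24 h, 48 h). Clone 30 had 91.8, 41.9 and 249 CPM. Each clone was lowest at 24 h and highest at 48 h, but clone 31 at 48 h was barely above clone 30 untreated. Miat rose at 48 h against untreated by 2.05 ± 0.28 (clone-blocked edgeR fit, adjusted p = 0.0238), which is 4.14-fold. The within-clone ratio of 48 h to untreated was 6.38 in clone 31 (5.83 to 6.99) and 2.71 in clone 30 (2.59 to 2.84). Without the block the SE was 1.10 and the adjusted p 0.440. At 24 h Miat was 0.616 times the untreated level in clone 31 (0.540 to 0.702) and 0.456 times in clone 30 (0.428 to 0.486). That difference, -0.95 ± 0.28, was not called on the 6 libraries (adjusted p = 0.730 in edgeR and 0.0972 in DESeq2, both with the block).

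Rmst (chr10:92071037-92165170, minus strand) was counted 21 times untreated, 19 times at 24 h and 73 times at 48 h in clone 31, and 8, 9 and 71 times in clone 30. That is 0.525, 0.451 and 2.75 CPM in clone 31 and 0.321, 0.225 and 2.30 CPM in clone 30. Both 48 h libraries were above the other 4. Rmst rose by 2.58 ± 0.31 against untreated (clone-blocked edgeR fit, adjusted p = 0.0238) and by 2.92 ± 0.31 against 24 h (adjusted p = 0.0162). Summed over clones, 144 counts at 48 h (exact Poisson 95% interval 121 to 170) stood against 29 untreated (19.4 to 41.7). Gm27544, an annotated RNA gene whose exon lies partly in an Rmst exon on the same strand, had 8 and 11 counts at 48 h against 5 and 0 untreated (clone 31 first), and counts in such shared bases cannot be given to 1 gene.

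The microRNA gene inside Rmst was looked at after its values were seen. Mir135a-2 had 5 counts in clone 31 and 6 in clone 30 at 48 h, against 0 in all 4 other libraries. Set against a floor of 3 counts over a group, that is 4.14-fold higher than untreated and 5.24-fold higher than 24 h. The floor is a chosen value and no error was put on the 11 counts at 48 h, so these ratios are not lower bounds. Mir1251, also inside Rmst, had 0 counts in every library. Libraries of this kind hold fragments of longer RNAs, so the counts are of the RNA around the hairpin and not of the mature forms printed above.

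Pantr1 (chr1:42590782-42694842, minus strand) stood in clone 31 at 46.4, 64.0 and 103 CPM (untreated, 24 h, 48 h). Clone 30 had 44.7, 50.4 and 68.0 CPM. The 2 untreated libraries were the lowest and the 2 from 48 h the highest. Pantr1 rose at 48 h by 0.88 ± 0.14 against untreated (clone-blocked edgeR fit, adjusted p = 0.0250). The neighbouring Pou3f3, which starts 926 bp away on the opposite strand, had 169 and 199 CPM at 48 h against 167 and 137 CPM untreated (clone 31 first). Its log2 difference was 0.28 ± 0.14 (adjusted p = 0.199, edgeR with the block), not called.

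Firre, the X-linked RNA (chrX:50555744-50635321), stood in clone 31 at 8.18, 7.99 and 12.0 CPM (untreated, 24 h, 48 h). Clone 30 had 8.31, 12.3 and 22.5 CPM. The untreated levels of the 2 clones were close, and both 48 h libraries were above them. Firre rose at 48 h against untreated by 0.99 ± 0.23 (clone-blocked edgeR fit, adjusted p = 0.0396). At 24 h clone 30 was above and clone 31 below its untreated level, and the log2 difference was 0.25 ± 0.23 (adjusted p = 0.904). The counts join both parental alleles, so Firre RNA from the active and the inactive X was not separated.

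Of the snoRNA host genes, Gas5 (chr1:161034422-161038539, plus strand) stood in clone 31 at 114, 109.6 and 98.4 CPM (untreated, 24 h, 48 h). Clone 30 had 121, 118 and 108 CPM. Both 48 h libraries were below all the others, by little. The 48 h difference from untreated was -0.19 ± 0.08 (clone-blocked edgeR fit, adjusted p = 0.158), not called. Within clones the 48 h level was 0.864 times the untreated one in clone 31 (0.824 to 0.907) and 0.895 times in clone 30 (0.852 to 0.940). In the annotation 10 snoRNA genes lie in Gas5 exons over 746 bp, and they had 0 counts in every library. The counting left out read pairs shared between genes.

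Snhg11 (chr2:158375638-158386145, plus strand), which the annotation classes as protein-coding, had 2 counts untreated, 1 at 24 h and 1 at 48 h in clone 31. In clone 30 it had 22, 42 and 82 counts, or 0.883, 1.05 and 2.65 CPM. In clone 30 the 48 h level was 3.0 times the untreated one (1.86 to 5.05), while in clone 31 the ratio was 0.753 with an interval of 0.0128 to 14.5. The blocked log2 difference at 48 h, 1.41 ± 0.41 (edgeR, adjusted p = 0.0648), was not called and rests on clone 30.

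**Figure D3:**
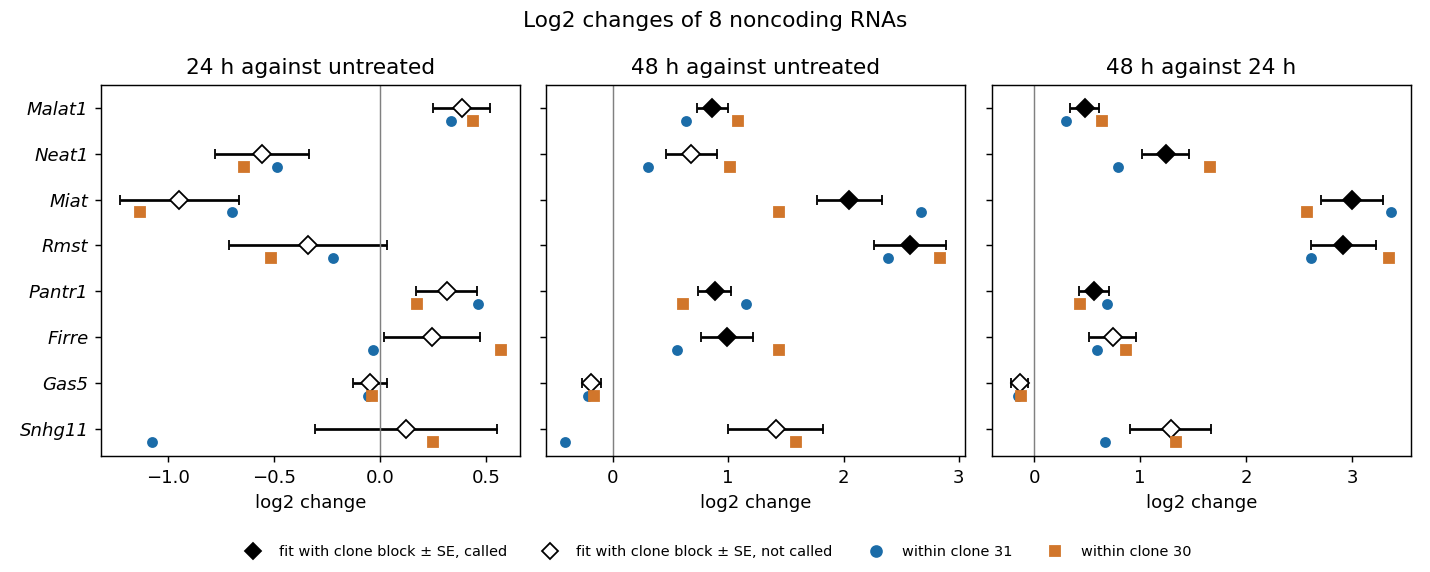
Log2 change of each RNA in the 3 comparisons; diamonds are the edgeR fit with the clone as a block ± SE (filled where the adjusted p is under 0.05), circles are the ratio within clone 31 and squares that within clone 30. No diamond is filled at 24 h, 5 are filled at 48 h against untreated and 5 at 48 h against 24 h, and Snhg11 in clone 31 rests on 1 or 2 counts a library.

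As a group at 48 h against untreated, the 8 RNAs had a median log2 change of 0.94 in the blocked fit, against 0.02 over the 16007 genes tested. The 5 higher and 0 lower calls stand beside 8.35% of all genes called higher and 9.08% called lower, 17.4% in all. In 6 of the 8 both 48 h libraries were above both untreated ones, which 25.7% of all genes showed, and in Gas5 both were below, which 25.7% showed too. On treatment group alone edgeR called none of the 8 (0% of all genes were called), with adjusted p from 0.139 to 0.709. An unadjusted p under 0.05 was found there for 5 of the 8 and for 3311 of all 16007 genes. DESeq2 called 3 on treatment group alone (Malat1, Rmst and Pantr1), beside 10.3% of all genes, 4.16% higher and 6.11% lower. With the block it called 6, with Neat1, Miat and Firre added to those 3, beside 20.7% of genes, 9.86% higher and 10.9% lower. The blocked fit called 0 of the 8 when untreated clone 31 was left out and 4 (all but Firre of the 5) when untreated clone 30 was, and without either 24 h library it called 3 (Miat, Rmst and Pantr1). Over all genes the calls in those fits numbered 6 of 16364 without untreated clone 31, 2013 of 16997 without untreated clone 30, and 614 of 16335 and 646 of 16391 without the 24 h library of clone 30 and of clone 31, against 2790 of 16007 on all 6 libraries. Without the 48 h library of clone 31 it called 7, all but Gas5 (3290 of 16900 genes), and without that of clone 30 it called the same 5 (6615 of 16780 genes). On the 4 libraries of these groups alone it called 0, and 3 of 15357 genes.

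At 24 h against untreated, edgeR called 0 of the 8 with and without the block, as it did for 0% of all genes. The unadjusted p was under 0.05 for 3 of the 8 with the block (Malat1, Neat1 and Miat) and for Malat1 without it. Of all 16007 genes 988 had such a p with the block and 240 without it. DESeq2 called none of the 8 in either fit. DESeq2 called 0.0375% of all genes on treatment group alone (0.0187% in each direction) and 0.244% with the block, 0.0812% higher and 0.162% lower. The median log2 difference of the 8 was 0.04, against 0.01 over all genes. Both 24 h libraries were above both untreated ones for Malat1 and Pantr1 (13.0% of genes) and below for Neat1 (12.4%). When either 48 h library, or both, was left out of the blocked fit, Neat1 and Miat were called lower, at adjusted p from 0.00930 to 0.0499. Those fits called 258 of 16780 genes without clone 30 at 48 h (140 lower), 263 of 16900 without clone 31 at 48 h (144 lower) and 140 of 15767 without both (85 lower). The 24 h and 48 h comparisons share the untreated libraries.

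Between 48 h and 24 h, 5 of the 8 rose in the blocked fit and none fell, beside 12.3% of genes called higher and 13.9% lower, 26.1% in all. They were Malat1 (0.48 ± 0.14, adjusted p = 0.0497), Neat1, Miat (3.0 ± 0.29, adjusted p = 0.0162), Rmst and Pantr1 (0.57 ± 0.14, adjusted p = 0.0365). Firre (0.74 ± 0.22, adjusted p = 0.0565) and Snhg11 (1.29 ± 0.38, adjusted p = 0.0550) fell short of the threshold in the same edgeR fit. On treatment group alone edgeR called 0 of the 8 (0% of all genes). An unadjusted p under 0.05 was found there for 3 of the 8 and for 3997 of all 16007 genes. DESeq2 on treatment group alone called 3 (Malat1, Neat1 and Rmst), beside 6.19% of genes called higher and 9.38% lower, 15.6% in all. With the block DESeq2 called 6, with Miat, Pantr1 and Firre added to those 3, beside 12.1% higher and 14.3% lower, 26.4% in all. Both 48 h libraries were above both from 24 h in 5 of the 8 (28.4% of genes) and below in Gas5 (27.9%). Leaving out either 24 h library ended all 5 calls and nearly all others, with 0 of 16335 genes called without clone 30 at 24 h and 3 of 16391 without clone 31.

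Clone 31 was then set against clone 30 over all times, with treatment group as a further term. Clone 31 was lower in Miat by 2.07 ± 0.24 on the log2 scale (edgeR, adjusted p = 0.00568) and in Snhg11 (adjusted p = 0.00252), and in none of the 8 was it called higher. These 2 lower calls stand beside 8.58% of genes called lower and 7.58% called higher. DESeq2 made the same 2 calls, beside 9.11% lower and 8.28% higher, 17.4% in all. At each time Miat was lower in clone 31, with 93.8 CPM against 249 CPM in clone 30 at 48 h. Snhg11 had 4 counts in clone 31 against 146 in clone 30 over the 3 times, and the level in clone 30 was 41.4 times that in clone 31 (95% counting interval 15.8 to 154). With 1 or 2 counts in each clone 31 library, Snhg11 passed the filter on low counts through the clone 30 libraries alone, which limits its clone call. In Snhg11 alone all 3 libraries of clone 31 were below all of clone 30, as in 11.4% of genes, and in none were all of clone 31 above, as in 11.8%. Pantr1 (0.33 ± 0.12, adjusted p = 0.114) and Firre (-0.53 ± 0.18, adjusted p = 0.111) were not called. With 1 library left out, the log2 difference ran from 0.19 to 0.48 in Pantr1, from -0.77 to -0.36 in Firre and from -0.079 to 0.35 in Neat1. Each passed the test in some of those fits, where the number of all genes called moved widely too. Without the treatment term Miat lost its call (adjusted p = 0.490). In the same clone comparison 3 of 7 astrocyte markers were called lower in clone 31 and none higher, and of 9 neuron markers 1 was called higher and 2 lower. Their part in the clone difference of Miat and Snhg11 was not tested.

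Gene groups around the 8 RNAs were read from the same 48 h blocked fit, which called 8.35% of all genes higher and 9.08% lower. With lists this short, 1 call in a list does not stand out from those shares. Of 15 tested snoRNA host and related noncoding genes, 13 had negative and 2 positive log2 differences from untreated, and 1 passed the test, Snhg1, host of several box C/D snoRNAs. Snhg1 fell by 0.81 ± 0.15 (edgeR, adjusted p = 0.0292), with 18.9 and 24.8 CPM at 48 h against 40.0 and 36.2 CPM untreated (clone 31 first). Snhg15 (-0.75 ± 0.20), Snhg3 (-0.61 ± 0.20) and Snhg6 (-0.36 ± 0.12) did not pass, and the list's median was -0.29. Symbols of that list without a match among the genes counted were 3 (Snhg4, Snhg7 and Snhg16).

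Of 26 tested other named long noncoding RNAs, 4 rose and 1 fell, with a median of 0.25. Sox2ot, whose gene spans Sox2, rose by 1.82 ± 0.15 (edgeR, adjusted p = 0.0238), with 33.5 and 48.1 CPM at 48 h against 9.68 and 13.5 CPM untreated (clone 31 first). Mir9-3hg, the host of a neural microRNA, rose by 1.88 ± 0.24 (adjusted p = 0.0238). Xist, the RNA that silences the X chromosome, rose by 1.0 ± 0.12 (adjusted p = 0.0238). Airn, the imprinted antisense RNA of the Igf2r locus, fell by 1.33 ± 0.21 (adjusted p = 0.0246). Mir124-2hg, named after its value was seen, rose by 0.78 ± 0.17 (adjusted p = 0.0347).

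Genes for proteins of the bodies that Malat1 and Neat1 mark had negative differences more often than positive ones. Of 14 paraspeckle protein genes all 14 had a negative log2 difference, with a median of -0.20, but 1 passed the test, Rbm14 (-0.53 ± 0.12, adjusted p = 0.0378). Tardbp (-0.53 ± 0.16), Pspc1 (-0.41 ± 0.13) and Nudt21 (-0.26 ± 0.09) did not pass. Of 16 nuclear speckle and splicing genes 5 fell and none rose, with a median of -0.33. They were Srsf10 (-0.76 ± 0.14, adjusted p = 0.0295), Srsf7 (-0.78 ± 0.15, adjusted p = 0.0299), U2af2 (-0.52 ± 0.10, adjusted p = 0.0303), Srsf2 (-0.80 ± 0.18, adjusted p = 0.0380) and Srsf1 (-0.51 ± 0.13, adjusted p = 0.0465), the last named after its value was seen. All encode splicing factors.

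Among 11 genes for proteins reported to bind or act on the 8 RNAs, 2 rose and 1 fell. Sox2, whose protein Rmst binds in human cells, rose by 1.03 ± 0.14 (edgeR, adjusted p = 0.0239), with 472 and 339 CPM at 48 h against 192 and 200 CPM untreated (clone 31 first). Pou3f2, a paralogue of Pou3f3, rose by 0.65 ± 0.16 (adjusted p = 0.0480). Ptbp1, a splicing repressor that is high in neural progenitors, fell by 0.55 ± 0.10 (adjusted p = 0.0268). Celf3, a Miat-binding protein, had a difference of 1.30 ± 0.39 (adjusted p = 0.0689) and Sf1, which binds the repeat printed above, one of -0.39 ± 0.12 (adjusted p = 0.0746). Neither passed. Of 10 nonsense-mediated decay factors, the pathway that degrades Gas5 RNA, none passed the edgeR test. An unadjusted p under 0.05 was found for 2 of them (Upf1 and Smg5), beside 5985 of all 16007 genes in that fit. The 10 had 8 negative and 2 positive differences and a median of -0.12. Smg5, the smallest p among them, was at -0.39 ± 0.12 (adjusted p = 0.0743).

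Cell type markers moved at 48 h as well, in the fit that called 8.35% of all genes higher and 9.08% lower. Of 7 astrocyte markers 4 rose (Gfap by 1.85 ± 0.28, S100b by 0.96 ± 0.18, Aldoc by 0.97 ± 0.21 and Gja1 by 0.39 ± 0.09), and the summed level of the list was 2255 to 2462 CPM at 48 h against 1308 to 1885 CPM untreated. Of 6 tested oligodendrocyte lineage markers 3 rose (among them Pdgfra by 2.27 ± 0.31 and Cnp by 1.68 ± 0.35), with a summed level of 3286 to 3642 CPM against 2785 to 3320 CPM, and Sox10 stayed under 0.19 CPM in every library. Olig1 (0.13 ± 0.13) and Olig2 (-0.27 ± 0.18) were not called. Of 7 tested NPC markers 2 rose (Sox2 and Sox3), with sums of 4548 to 4884 CPM against 3486 to 4346 CPM. Nes went the other way, with 648 and 1136 CPM at 48 h against 1275 and 1289 CPM untreated (clone 31 first). Its difference from untreated was not called (-0.58 ± 0.20, adjusted p = 0.0962, edgeR with the block). Against 24 h Nes was called lower in the same fit (-0.95, adjusted p = 0.0247). Of 9 tested neuron markers 1 fell, Syt1, and none rose, with sums of 1018 to 1102 CPM against 865 to 1151 CPM and Slc17a6 at 0 counts. Of 2 tested pluripotency markers Nanog rose, to 3.65 and 2.52 CPM against 1.40 and 1.24 CPM untreated (clone 31 first). Of 4 tested mesenchymal markers Col1a1 rose, and that list summed to 10.96 to 11.53 CPM against 10.9 to 15.5 CPM. The part of these marker changes in the rise of Malat1, Miat, Rmst, Pantr1 and Firre was not tested.

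**Figure D4:**
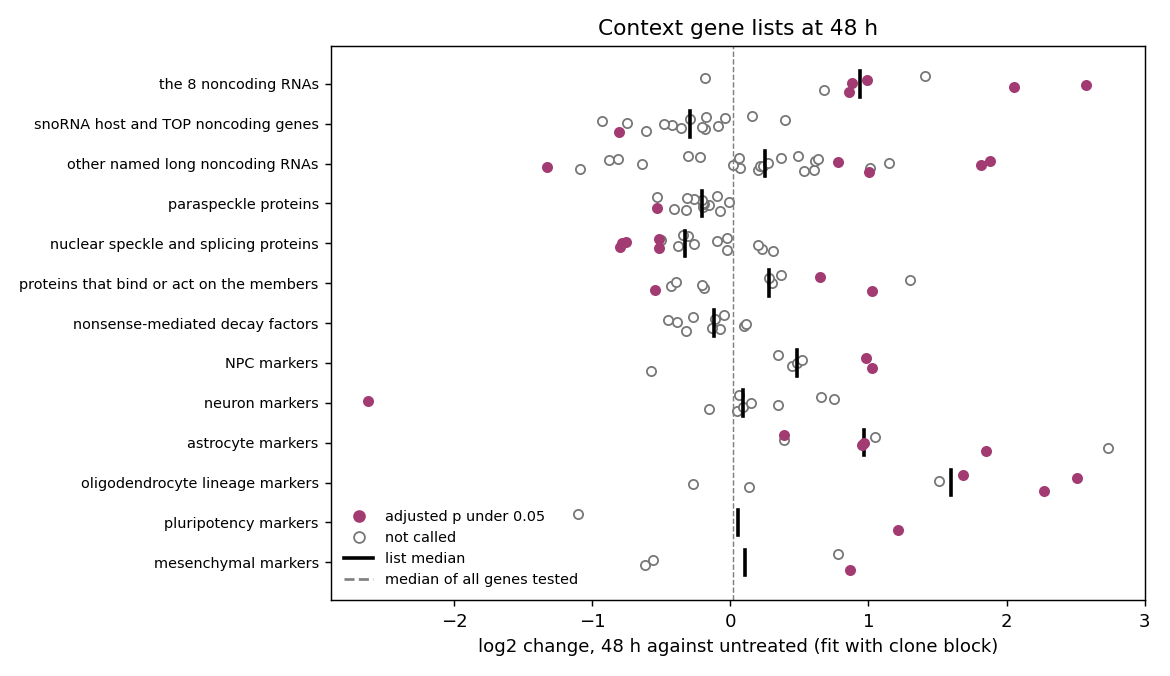
Log2 change at 48 h against untreated of every tested gene in each group (clone-blocked edgeR fit); filled points have an adjusted p under 0.05, black bars are group medians and the dashed line is the median of all genes, 0.02. The 8 RNAs have a median of 0.94, astrocyte markers 0.97 and oligodendrocyte lineage markers 1.6, while splicing and paraspeckle genes lie mostly left of the line; TOP stands for a 5′ terminal oligopyrimidine tract.

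Genes within 100 kb of the 8 were tested as well. Of 30 such neighbours, 3 rose and 2 fell in the 48 h blocked fit, with a median log2 change of 0.17. These counts are near the shares of all genes in that fit, 8.35% higher and 9.08% lower. Ltbp3 (0.42 ± 0.11) and Sssca1 (-0.48 ± 0.12), 37158 and 63958 bp from Malat1, both had an adjusted p of 0.0482 in edgeR, the one higher and the other lower. Pola2, 95065 bp from Neat1, fell by 0.60 ± 0.11 (adjusted p = 0.0287), and Frmd8, 4224 bp from Neat1, had a difference of -0.10 ± 0.11 (adjusted p = 0.567). Crybb1, a crystallin gene 26420 bp from Miat, rose by 1.17 ± 0.29 (adjusted p = 0.0462). Zbtb37, whose span overlaps Gas5 on the opposite strand without shared exons, rose by 0.46 ± 0.11 (adjusted p = 0.0472). Antisense genes over Malat1 and Miat exons had 71 and 17 counts in all 6 libraries, against 95536 and 15127 for the RNAs themselves, with the counting set to use strand per the file headers.

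Promoter windows, 250 bases before to 50 after the start, were found in RefSeq (GRCm38.p6) for 5 of the 8, with 2 windows for Gas5. The windows of Malat1, Miat and Firre, 3 of the RNAs that rose, are shown with the motifs searched in capitals. The motifs searched were CCAAT (bound by NF-Y), GGGCGG (bound by SP1), CACGTG (an E-box), TGACGTCA (the cAMP response element), TGGGAA (bound by RBPJ) and AACAAT (bound by SOX proteins). Both strands were searched, a match on the other strand is in capitals as it reads on the strand printed, and no matches overlap in these windows.
Malat1 (chr19:5802623-5802922, minus strand): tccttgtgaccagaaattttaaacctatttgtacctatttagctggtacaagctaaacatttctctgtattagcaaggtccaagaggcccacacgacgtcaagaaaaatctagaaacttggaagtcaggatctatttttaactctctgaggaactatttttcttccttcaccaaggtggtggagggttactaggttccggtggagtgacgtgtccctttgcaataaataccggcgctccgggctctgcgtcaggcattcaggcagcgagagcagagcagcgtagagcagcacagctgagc
Miat (chr5:112228899-112229198, minus strand): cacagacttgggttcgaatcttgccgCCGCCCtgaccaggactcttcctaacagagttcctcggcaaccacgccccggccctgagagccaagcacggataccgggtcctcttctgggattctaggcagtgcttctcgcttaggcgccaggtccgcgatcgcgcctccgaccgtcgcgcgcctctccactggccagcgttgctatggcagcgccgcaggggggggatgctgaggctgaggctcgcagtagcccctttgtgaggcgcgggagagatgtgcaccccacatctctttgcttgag
Firre (chrX:50635272-50635571, minus strand): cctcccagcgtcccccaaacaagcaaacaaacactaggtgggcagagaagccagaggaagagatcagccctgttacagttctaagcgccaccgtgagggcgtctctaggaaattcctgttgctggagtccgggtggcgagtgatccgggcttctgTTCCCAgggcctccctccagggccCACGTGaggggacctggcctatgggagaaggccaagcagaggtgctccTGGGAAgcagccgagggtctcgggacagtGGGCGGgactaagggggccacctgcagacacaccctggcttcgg
The windows of Malat1 and Snhg11 held none of these. GGGCGG was present in Miat and Firre and in both Gas5 windows, as in 35.7% of 32851 promoters. Firre also held CACGTG (7.2% of promoters) and TGGGAA (25.6%), and Gas5 held TGGGAA in one window and TGACGTCA (1.8%) in the other. CCAAT (37.4%) and AACAAT (10.7%) were in none of the 6 windows. No motif was in all 3 windows shown. The Malat1 window had 47.0% G and C, against a median of 52.7% over all promoters, and those of Miat and Firre had 64.3% and 62.7%.

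The genes most like each RNA over the 6 libraries, by Pearson's r of log2 CPM among genes of at least 5 CPM on average, were taken as a description, since the libraries share clones and times. For Malat1 they were Pik3c2b (r = 0.995) and Zc3h3 (0.991). For Neat1 they were Sox5 (0.983) and Unkl (0.974), and for Miat A830011K09Rik (0.998) and Megf10 (0.998). For Rmst they were Uvssa (0.995) and Agbl5 (0.994), for Pantr1 Stard3 (0.993) and Tbc1d14 (0.991), and for Firre Zfp933 (0.993). For Gas5 they were Dpy19l1 (0.998) and Fam78b (0.992), and for Snhg11 Lrrtm1 (0.994) and 2210016F16Rik (0.994). Miat had the most genes at r of 0.95 or more, 231 of 11092 compared, and Neat1 the fewest, 13.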

How the data were processed

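Polyadenylated RNA libraries (TruSeq RNA kit v2, RIN above 9, paired 100-base reads), per the labels' protocols, came from cells in N2B27 with EGF and FGF at 10 ng/ml on 0.1% gelatin. The deposited values are counts of read pairs per gene, summed by the authors over each gene's exons using featureCounts 1.6.1 with the reverse-strand setting -s 2, on Ensembl release 92 of GRCm38 (mm10), per the file headers, which also name merged, duplicate-free alignments in a STAR folder. Removing duplicates without molecular identifiers can lower counts of abundant RNAs such as Malat1. Read pairs shared between genes were left out by that counting. Exon lengths deposited beside the counts gave levels per kb. R 3.4.2 and DESeq2 are also named in the submitters' processing notes.

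Tests used the robust quasi-likelihood fit of edgeR 4.0.16 (R 4.3.3), 2-sided, over the 6 libraries, after TMM scaling, filterByExpr (16007 genes kept, 15492 for the clones) and a Benjamini-Hochberg adjusted p of 0.05 over all genes. The planned main term was treatment group alone, and adding the clone as a blocking term was an alternative. Libraries of 1 subclone carry the same number in the sample titles, and their deviations from group means correlated at 0.803, 0.580 and 0.707, so the clone pairs them and the blocked fit is given beside every call it changes. Alternatives were DESeq2 1.42.0, limma 3.58.1 voom, other scalings and filters, the 4 libraries compared, and each library left out. The test was also run on simulated data in which every gene had the same spread, which cannot show how calls hold where spreads differ. Named genes are the 8, up to 4 of each list by smallest p at 48 h, neighbours within 100 kb and the 2 most correlated genes, of which a few are not reported here. The members and lists were chosen with earlier results of these data known.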

Additional observations from a re-analysis of the deposited data

How the results depend on the processing

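Counts of called members on the planned terms were 0 at 24 h against untreated, 0 at 48 h against untreated, 0 at 48 h against 24 h and 2 between clones (edgeR, with 1, 5, 3 and 4 at an unadjusted p under 0.05). Over all genes such a p was found for 240, 3311 and 3997 of 16007 in the auxin contrasts and 4983 of 15492 between clones. At 48 h against untreated 2 were called with no filter, 3 by DESeq2, 5 with the replicate block (also 5 with voom, total counts, DESeq2 size factors or upper-quartile scaling added) and 6 with the block in DESeq2. Over all 16007 genes the block called 2790 and DESeq2 alone 1644, against 0 by edgeR without the block. With no filter 216 of 26823 genes were called, and the block in DESeq2 called 3318 of 16007. The block with voom, total counts, DESeq2 size factors and upper-quartile scaling called 2815, 2585, 2811 and 2756 of them. At 48 h against 24 h the counts were 2 with no filter, 3 by DESeq2, 5 with the replicate block, 6 with the block in DESeq2 or on the 4 libraries compared, 4 with the block and size factors or total counts, and 7 with the block and voom or upper-quartile scaling. Over all genes those fits called 833 of 26823 with no filter and 2493 of 16007 by DESeq2. The block called 4185 of 16007, 4229 in DESeq2 and 4156 of 15707 on the 4 libraries. With size factors, total counts, voom and upper-quartile scaling it called 4203, 4039, 4342 and 4275 of 16007. At 24 h the block on 4 libraries called 2, beside 140 of 15767 genes, and on all 6 it changed no call. The clone term alone called 1, beside 566 of 15492 genes. Leaving out 1 library gave 0 on treatment group alone in all 3 auxin contrasts, 0 to 2, 0 to 7 and 0 to 6 with the block (24 h, 48 h, and 48 h against 24 h), and 2 to 4 between clones. The number of all genes called moved widely across those fits too, with the block and between clones. A library left alone in its group is assumed to vary like the others.

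Directions of uncalled values reversed as follows, and the cause was not tested. Snhg11 at 24 h, 0.28 on treatment group alone, was -0.11 with voom and -0.039 with the block in DESeq2. Between clones Malat1 (0.052) was -0.0076 with total counts and Neat1 (0.090) was -0.034 with clone alone. With 1 library left out, log2 differences at 24 h ran from -2.55 to 0.79 in Miat, from -0.92 to 0.080 in Rmst, from -0.039 to 0.58 in Firre (-0.097 to 0.64 with the block), from -0.094 to 0.0040 in Gas5 and from -4.00 to 3.33 in Snhg11. With the block Snhg11 was -1.35 and -0.14 at 24 h without clone 30 untreated and without clone 30 at 24 h. Snhg11 ran from -3.42 to 4.66 at 48 h against untreated and from -3.69 to 5.62 at 48 h against 24 h, and with the block it was -0.065 without clone 30 untreated and -0.017 without clone 30 at 48 h. Between clones the range was -0.037 to 0.17 in Malat1 and -0.079 to 0.35 in Neat1. Upper-quartile scaling moved the median of all genes to 0.11 at 48 h against 24 h, where 59.6% of blocked calls were then higher, against 46.9% with TMM. At 48 h against untreated the share of blocked calls that were higher was 47.9% with TMM, 55.3% with upper-quartile scaling and 52.4% with total counts, so the larger direction turned. Between clones 36.1% of calls were higher with total counts and 38.0% with upper-quartile scaling, against 46.9%. Rmst (8 to 73 counts a library) and Snhg11 (1 to 82) are limited by depth.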

Other observations

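Annotated long noncoding genes as a class were counted after the data were seen. Of 1259 tested at 48 h against untreated, 89 (7.07%) rose and 31 (2.46%) fell in the edgeR fit with the clone as a block, beside 8.35% and 9.08% of all genes, so the share called higher was not above that of all genes and the share called lower was below it. The median log2 change was 0.27, against 0.02 over all genes. At 48 h against 24 h 214 (17.0%) rose and 31 (2.46%) fell, beside 12.3% and 13.9% of all genes, with a median of 0.47 against 0.03. At 24 h against untreated none was called in the edgeR fits, and the median was -0.16. DESeq2 with the block called 1 higher and 4 lower (0.0794% and 0.318%), beside 0.0812% and 0.162% of all genes. DESeq2 on treatment group alone called 1 lower (0.0794%), beside 0.0187% of all genes. Between clones 23 (2.02%) were higher and 92 (8.08%) lower in clone 31 of 1138 tested, beside 7.58% and 8.58% of all genes, with a median of -0.18.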
